A study of Arabidopsis thaliana with 20 samples.

Results

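The response of an Arabidopsis leaf to syringe infiltration itself was read from 10 of the 20 RNA-seq samples of this series: 5 water-infiltrated and 5 non-infiltrated samples, taken by their treatment labels. All leaves came from wild-type Columbia-0 plants, 6 weeks old and grown in a greenhouse under long days. No sample of either group received nanotubes, RNA or plasmid. Young leaves were chosen for infiltration, whereas the age and position of the non-infiltrated leaves are not given in the sources used here. Water-infiltrated leaves were filled with about 40 µL of water from a needleless syringe and collected 2 days later. Non-infiltrated leaves came from plants that were not treated. The other 10 samples were leaves infiltrated with single-walled carbon nanotubes carrying single-stranded RNA (SWNTs) or with polyethyleneimine-coated nanotubes carrying a plasmid (PEI-SWNTs), both at 50 ng/µL. Each replicate combined 4 leaves of different plants. Pressing the syringe against the leaf, flooding its air spaces and the water itself happened together in these samples and cannot be told apart.

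Water forced through the stomata fills the spaces between mesophyll cells, which normally hold air, so that gas exchange slows until the water has evaporated. Pressure on a leaf is known to raise calcium in its cells within minutes and to switch on touch genes, many of which code for calmodulin-like proteins and wall enzymes. Later responses of handled or wounded leaves run through hormones: salicylic acid, which acts with WRKY factors and receptor-like kinases against biotrophic microbes, jasmonate, which acts against chewing insects and often opposes salicylic acid, and abscisic acid, which rises in dry tissue.

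Counts on genes ranged between 18191528 and 27143499 per water-infiltrated sample and between 23138648 and 29737496 per non-infiltrated sample. Of 37336 genes counted, the 16288 with an average of at least 1 RPKM (reads per kilobase of exon, scaled to library size) over all 20 samples were tested with edgeR's quasi-likelihood test and Benjamini-Hochberg adjustment. Levels are given as CPM, counts scaled to library size after normalization by the trimmed mean of M values, for replicates 1 to 5 of each group in that order. Differences are given as log2 fold changes of water-infiltrated over non-infiltrated leaves, which is also what a number in brackets after a gene, a median, or the size of a rise or fall refers to, and p-values are adjusted over all genes tested. In a principal component analysis of the 10 samples the first component held 49.0% of the variance and separated the groups, at 15.5 to 44.3 in water-infiltrated and -55.3 to -8.10 in non-infiltrated samples. Non-infiltrated replicate 3 and water replicate 3 lay nearest to the other group among the genes that fell: the median of the 310 genes called lower was -0.74 log2 units from the non-infiltrated mean in water replicate 3, against -1.22 to -1.60 in the other water-infiltrated samples, and -0.34 in non-infiltrated replicate 3. Defining markers of leaf mesophyll summed to 17870 to 25976 CPM in water-infiltrated and 16643 to 20147 CPM in non-infiltrated samples. The 4 root markers summed to 34.4 to 37.7 CPM in water-infiltrated and 29.9 to 38.1 CPM in non-infiltrated samples, with 1 of them high enough to test and RHD6 without a count in any of the 10. SAND, a gene often used as a reference, stood at 36.6 ± 1.28 CPM in water-infiltrated and 36.9 ± 1.74 CPM in non-infiltrated leaves (SD, n = 5 each), with a log2 fold change of -0.010.

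Between water-infiltrated and non-infiltrated leaves, many genes differed by a little and few by a lot. At an adjusted p under 0.05, 2675 genes were higher in water-infiltrated leaves (16.4% of those tested) and 2670 were lower (16.4%), together 32.8%. With a fold change of at least 2 besides, 425 genes were called higher (2.61%) and 310 lower (1.90%), so 735 in all (4.51%). Of the genes called, 117 were at least 4-fold higher and 54 at least 4-fold lower. The median log2 fold change was 1.60 among the genes called higher and -1.39 among those called lower, against 0.00285 over all genes tested. The 5 water-infiltrated samples lay entirely above or below the 5 non-infiltrated ones in 423 of the 735 genes called and in 2899 of all genes (17.8%, 8.61% with water higher and 9.18% with water lower). Tested against a change of 2-fold in place of none (edgeR's glmTreat), 46 genes were higher and 28 lower. Gene lists below are counted at an adjusted p under 0.05 with no fold minimum, to be read against 16.4% of all genes in each direction. The filter used the average of all 20 samples, so the counts cover the members that passed it and not the whole list. A member low in both groups compared could pass through its level in the nanotube samples.

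**Figure D1:**
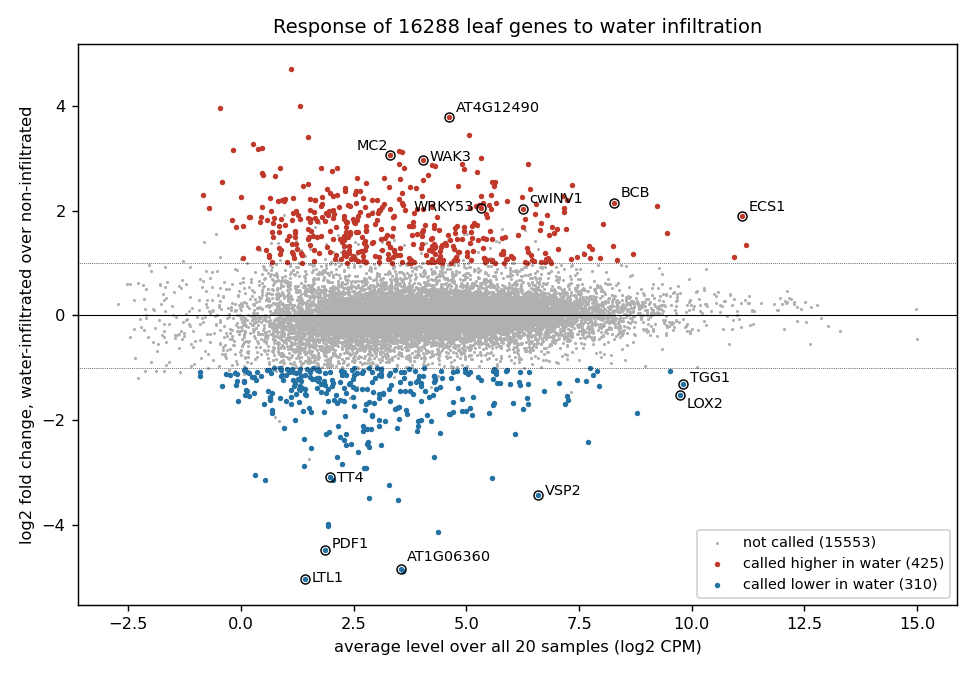
Each point is 1 of the 16288 genes, with its average level over all 20 samples (log2 CPM) on the x axis and its log2 fold change, water-infiltrated over non-infiltrated, on the y axis. The 425 genes called higher (red) and the 310 called lower (blue) are at least 2-fold apart with an adjusted p under 0.05, dotted lines mark 2-fold, and the circled genes run between AT4G12490 at 3.80 and LTL1 at -5.04.

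The 12 largest rises were taken among genes called with separate groups and a mean of at least 5 CPM in the higher group. They ran between log2 fold changes of 3.80 and 2.55. AT4G12490, which codes for a small protein of the lipid-transfer family, was at 38.2, 12.5, 24.2, 10.8 and 19.7 CPM in water-infiltrated leaves, against 1.66, 0.315, 3.93, 0.0414 and 1.53 CPM in non-infiltrated leaves (log2 fold change 3.80, standard error 0.52, adjusted p = 3.9e-05). No sample of either group overlapped the other, and 35.9% of its exon length lies opposite that of a neighbouring gene. The strand setting of the counting is not given in the sources used here, so reads of such partners cannot be told apart. The same holds for AT3G22620 (5.88%), CML12 (20.2%), SARD1 (18.4%), LUX (17.8%), TIP2;1 (14.0%) and SRG3 (44.7%), which are described further on. MC2 (AT4G25110), a metacaspase, was at 9.16, 7.73, 4.999, 6.42 and 8.89 CPM in water-infiltrated leaves, against 1.41, 0.355, 0.748, 0.538 and 1.36 CPM in non-infiltrated leaves (log2 fold change 3.07, standard error 0.26, adjusted p = 8.5e-07). Its lowest water-infiltrated sample, 5.00 CPM, stood above its highest non-infiltrated one, 1.41 CPM. PCR1, a small membrane protein named for cadmium resistance, was at 19.0, 14.3, 11.5, 14.8 and 31.2 CPM in water-infiltrated leaves, against 2.45, 1.69, 0.636, 6.66 and 1.09 CPM in non-infiltrated leaves (2.89, adjusted p = 1.2e-04). AT3G51330, an aspartyl protease family gene, was at 29.9, 11.0, 15.7, 11.8 and 25.1 CPM in water-infiltrated leaves, against 3.90, 1.93, 2.13, 3.14 and 2.88 CPM in non-infiltrated leaves (2.75, adjusted p = 2.3e-06). For both genes all 5 water-infiltrated samples lay above the 5 others, as the rule of choice required.

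Another 8 genes completed the 12 largest rises with separate groups and a mean of at least 5 CPM. They were AT1G76960 (3.01), AT1G13470 (2.90), AT4G12500 (2.89), the ABC transporter-like AT3G21080 (2.86), the berberine bridge family gene AT1G26390 (2.68), XTH23 (2.61), AT3G22620 (2.59) and EXT3 (2.55). AT4G12500 and AT3G22620 belong to the same lipid-transfer family as AT4G12490. EXT3, an extensin that crosslinks in the wall, and XTH23, which cuts and rejoins xyloglucan, act in the cell wall. EXT3 stood at 17.0 ± 5.25 CPM in water-infiltrated and 2.89 ± 1.54 CPM in non-infiltrated leaves (SD, n = 5 each), and 29.2% of its exons are overlapped on the opposite strand. Another 3 abundant genes were called higher. ECS1 was at 3058, 1435, 2323, 1576 and 2595 CPM in water-infiltrated leaves, against 801, 535, 362, 621 and 617 CPM in non-infiltrated leaves (1.90, adjusted p = 6.5e-06). GASA1, a gibberellin-regulated peptide gene, averaged 2465 ± 461 CPM in water-infiltrated and 1129 ± 523 CPM in non-infiltrated leaves (1.13, adjusted p = 0.0014), and the uncharacterized AT2G25510 averaged 1819 ± 609.6 CPM in water-infiltrated and 712 ± 252 CPM in non-infiltrated leaves (1.35, adjusted p = 4.1e-04).

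The 12 largest falls, taken by the same rule, included genes of lipids, of the cell wall and of flavonoid synthesis. LTL1 (AT3G04290), a GDSL-type lipase, was at 0.332, 0, 0.407, 0.196 and 0.180 CPM in water-infiltrated leaves, against 6.72, 8.24, 0.860, 8.56 and 13.2 CPM in non-infiltrated leaves (log2 fold change -5.04, standard error 0.67, adjusted p = 3.1e-05). GER3, a germin of the cell wall, was at 0.954, 0.644, 1.45, 1.76 and 1.62 CPM in water-infiltrated leaves, against 32.7, 43.7, 2.58, 48.9 and 65.7 CPM in non-infiltrated leaves (log2 fold change -4.89, standard error 0.69, adjusted p = 5.2e-05). In both, non-infiltrated replicate 3 was the lowest of its group but still above every water-infiltrated sample. AT1G06360, a fatty acid desaturase family gene, was at 0.290, 0.107, 3.66, 0.833 and 1.62 CPM in water-infiltrated leaves, against 29.1, 32.2, 10.3, 52.3 and 58.8 CPM in non-infiltrated leaves (log2 fold change -4.85, standard error 0.61, adjusted p = 2.0e-05). KCS19, a 3-ketoacyl-CoA synthase that lengthens fatty acids, averaged 2.92 ± 1.71 CPM in water-infiltrated and 27.3 ± 11.1 CPM in non-infiltrated leaves (-3.24, adjusted p = 3.2e-05). CSLG3, a cellulose synthase-like enzyme, averaged 1.46 ± 0.732 CPM in water-infiltrated and 10.4 ± 4.44 CPM in non-infiltrated leaves (-2.84, adjusted p = 5.3e-05). Neither gene had overlapping groups, again a condition of the choice.

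The rest of the 12 largest falls were AT1G31690, a copper amine oxidase (-4.02), AT5G45670, another GDSL lipase (-3.996), AT1G60590, a pectin lyase-like gene (-3.14), AT5G23820, a lipid recognition domain gene (-3.11), TT4 (-3.09), TPX2 (-2.92) and AT5G38130, an acyltransferase family gene (-2.89). TPX2 here is thioredoxin-dependent peroxidase 2, and 76.0% of its exons lie opposite exons of other genes. PDF1 (AT2G42840), a proline-rich protein of the leaf epidermis, belonged to the epidermal markers and was at 0.249, 0.215, 1.16, 0.196 and 0.540 CPM in water-infiltrated leaves, against 6.85, 14.6, 1.16, 12.1 and 17.3 CPM in non-infiltrated leaves (log2 fold change -4.49, standard error 0.69, adjusted p = 1.2e-04). Its lowest non-infiltrated sample, replicate 3, equalled its highest water-infiltrated one, replicate 3, to 3 digits. The 5 epidermal markers together summed to 1166 to 1233 CPM in water-infiltrated and 1029 to 1214 CPM in non-infiltrated samples. This sum is set by more abundant markers and could not show a fall of a gene as low as PDF1. Of the other 4 markers, 1 rose and 3 did not pass the test.

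**Figure D2:**
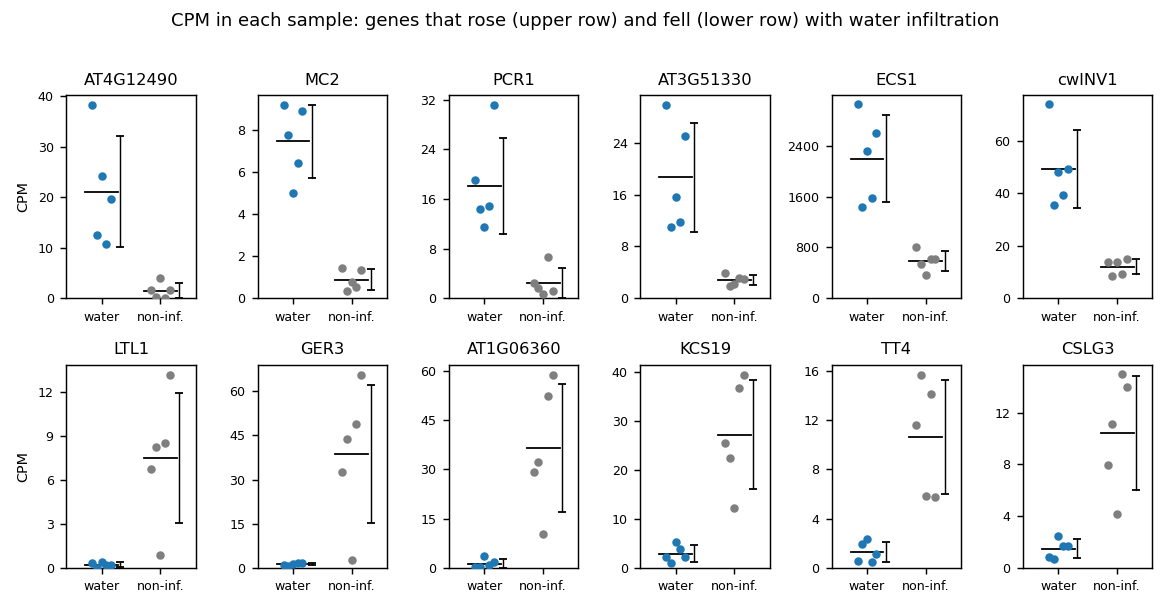
CPM in each of the 5 water-infiltrated (blue, left) and 5 non-infiltrated (grey, right) samples for 6 genes that rose (upper row) and 6 that fell (lower row); black lines are means, and the error bars give the SD, ending at the axis where they would pass below 0. MC2 lies at 5.00 to 9.16 CPM in water-infiltrated and 0.355 to 1.41 CPM in non-infiltrated samples, while LTL1 lies at 0 to 0.407 CPM in water-infiltrated and 0.860 to 13.2 CPM in non-infiltrated samples.

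Promoters were read from RefSeq's TAIR10.1 genome, 250 bases before to 50 after each gene's annotated start, and searched on both strands for 7 motifs. The W-box, the site that WRKY factors bind (TTGACC or TTGACT), was in 52.2% of the 425 promoters of genes called higher and 24.7% of the 304 of genes called lower, against 32.3% of the promoters of 16148 genes tested. The rapid stress element CGCGTT was in 8.94% of promoters of genes called higher and 1.64% of those called lower, against 3.85% of all. The G-box CACGTG, bound by bZIP and bHLH factors, went the other way, with 5.65% of promoters of genes called higher and 16.4% of those called lower, against 9.13% of all. The evening element AAAATATCT was in 3.76% of promoters of genes called higher and 5.26% of those called lower, against 3.07% of all. The GCC-box GCCGCC (2.35% of promoters of genes called higher, 0.658% of those called lower and 2.77% of all), the telobox AAACCCTA (3.06%, 2.303% and 5.83% in the same order) and site II TGGGCC (6.12%, 7.57% and 20.1%) were most frequent among all genes. No motif contains another, and these shares are descriptions without a test.

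**Figure D3:**
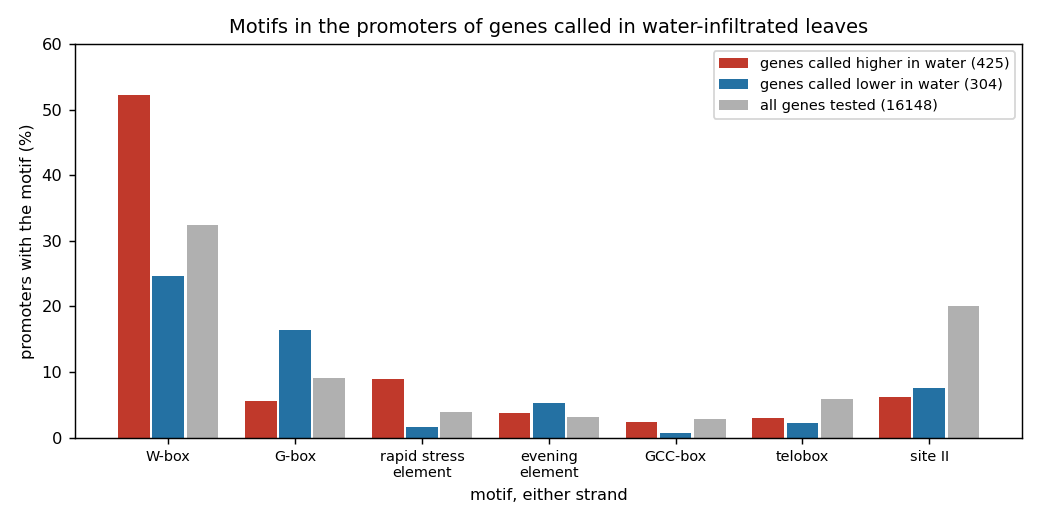
Share of promoters (y axis, %) that hold each of 7 motifs (x axis) on either strand, for the genes called higher (red, 425 promoters), the genes called lower (blue, 304) and all genes tested (grey, 16148). The W-box bar reaches 52.2% for genes called higher and 24.7% for genes called lower, and the G-box bars stand in the opposite order, at 5.65% and 16.4%.

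The following sequences are the 250 bases before the start of 3 genes that rose and carry a pair of W-boxes, shown because the W-box had the largest share among genes called higher. The W-boxes are in capitals, in the gene's own direction. MC2 lies on the reverse strand (chr4:12890263-12890512), as do AT1G13470 (chr1:4621586-4621835) and WRKY53 (chr4:12393983-12394232).
MC2: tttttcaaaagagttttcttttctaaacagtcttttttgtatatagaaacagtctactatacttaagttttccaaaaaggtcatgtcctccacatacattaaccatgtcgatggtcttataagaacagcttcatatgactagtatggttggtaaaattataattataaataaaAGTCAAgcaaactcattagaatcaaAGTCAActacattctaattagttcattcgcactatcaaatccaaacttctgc
AT1G13470: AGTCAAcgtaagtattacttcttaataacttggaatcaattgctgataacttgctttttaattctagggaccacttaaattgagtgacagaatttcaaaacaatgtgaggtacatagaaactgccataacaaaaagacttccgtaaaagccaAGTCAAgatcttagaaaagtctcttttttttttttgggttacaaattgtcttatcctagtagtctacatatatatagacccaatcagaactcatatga
WRKY53: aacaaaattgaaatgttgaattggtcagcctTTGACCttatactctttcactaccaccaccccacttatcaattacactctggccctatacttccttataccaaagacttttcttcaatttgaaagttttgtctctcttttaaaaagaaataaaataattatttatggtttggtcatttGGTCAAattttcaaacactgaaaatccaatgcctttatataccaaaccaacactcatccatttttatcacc

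Touch genes rose or did not pass the test. Of 15 touch and calmodulin-like genes tested, of 18 listed, 7 rose and none fell, with a median log2 fold change of 1.18. CML12 (also known as TCH3), a calmodulin-like calcium sensor, was at 61.8, 71.2, 85.2, 133 and 49.5 CPM in water-infiltrated leaves, against 21.4, 34.8, 29.4, 25.6 and 16.6 CPM in non-infiltrated leaves (log2 fold change 1.65, standard error 0.24, adjusted p = 6.8e-05), without overlap. XTH22 (also known as TCH4), which remodels xyloglucan and gave touch genes their name together with CML12, was at 157, 158, 180.4, 296 and 84.1 CPM in water-infiltrated leaves, against 26.1, 105, 107, 57.4 and 89.7 CPM in non-infiltrated leaves (1.18, adjusted p = 0.026). Its groups overlapped in water replicate 5. CML37 and CML38, calcium sensors also induced by wounding, rose by 2.02 (adjusted p = 0.025) and 2.34 (adjusted p = 0.042) from low levels, since CML38 was at 1.37, 1.29, 8.25, 17.0 and 0.216 CPM in water-infiltrated leaves, against 0.207, 2.44, 1.65, 0.827 and 0.339 CPM in non-infiltrated leaves. In these 3 genes water replicate 4 was the highest sample, and without it the adjusted p was 0.0862 for XTH22, 0.175 for CML37 and 0.253 for CML38. All 3 also lost the call without non-infiltrated replicate 1 or 4, at 0.052 to 0.087, CML37 and CML38 without non-infiltrated replicate 5, and CML38 without water replicate 3. The count of 7 fell to 4 without water replicate 4, to 4 without non-infiltrated replicate 4 and to 3 without non-infiltrated replicate 1.

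Most genes on the list of the core response to low oxygen were too low to test 2 days after the leaf was flooded. With so few tested, the values describe single genes rather than the list. Of 21, only 9 reached 1 RPKM, and 2 of these rose, both at least 2-fold, with a median of 0.11 and none lower. They were CML38, which is also on the touch list, and PHI-1, a phosphate-induced gene of the EXORDIUM family. PHI-1 was at 52.8, 38.4, 39.8, 73.5 and 21.3 CPM in water-infiltrated leaves, against 3.03, 9.26, 21.2, 5.58 and 12.5 CPM in non-infiltrated leaves (log2 fold change 2.12, standard error 0.46, adjusted p = 0.0020). ADH1 and PDC1, the alcohol dehydrogenase and pyruvate decarboxylase of fermentation, did not pass the filter. ADH1 was at 1.202, 1.23, 1.45, 1.32 and 0.792 CPM in water-infiltrated leaves, against 1.33, 2.25, 2.06, 1.45 and 1.59 CPM in non-infiltrated leaves, and PDC1 did not exceed 0.249 CPM in any of the 10 samples. The count of 2 became 1 in the 5 fits in which CML38 lost its call. The transcription factor HRE1 (-0.076), the oxidase RBOHD (-0.25) and sucrose synthase SUS1 (0.35) were tested and did not pass.

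Salicylic acid genes mostly rose. Of 23 genes tested of 28 listed, 17 rose and 1 fell, with a median of 0.87. SARD1, which switches on salicylic acid synthesis, was at 16.8, 12.9, 13.3, 20.1 and 15.6 CPM in water-infiltrated leaves, against 7.22, 2.88, 4.26, 5.05 and 3.83 CPM in non-infiltrated leaves (log2 fold change 1.77, standard error 0.20, adjusted p = 6.2e-06). WRKY54 was at 13.1, 9.60, 9.65, 10.05 and 13.8 CPM in water-infiltrated leaves, against 7.97, 1.69, 0.449, 3.81 and 2.65 CPM in non-infiltrated leaves (log2 fold change 1.78, standard error 0.39, adjusted p = 0.0020), and its partner WRKY70 averaged 85.4 ± 6.93 CPM in water-infiltrated and 26.6 ± 10.6 CPM in non-infiltrated leaves (1.69, adjusted p = 1.1e-05). ACD6, a membrane protein that promotes salicylic acid responses, was at 475, 347, 346, 322 and 415 CPM in water-infiltrated leaves, against 241, 123, 92.0, 227 and 161 CPM in non-infiltrated leaves (1.17, adjusted p = 6.8e-04). In these 4 genes no sample of the groups overlapped. PBS3, which conjugates isochorismate, rose by 0.96, with an adjusted p of 0.0512 without non-infiltrated replicate 5. Also among the risers were the receptors NPR3 (0.99) and NPR4 (0.75), NDR1 (1.01), and, by less, EDS1 (0.57), PAD4 (0.47) and SAG101 (0.57).

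The enzymes and end points of the same pathway did not all move with its regulators. ICS1, which makes isochorismate for salicylic acid, averaged 17.6 ± 3.52 CPM in water-infiltrated and 14.6 ± 3.91 CPM in non-infiltrated leaves (0.27, adjusted p = 0.23). PR1, the usual marker of the response, was close to 0 in both groups, at 0.912, 0.0537, 0.174, 0 and 0.288 CPM in water-infiltrated leaves, against 0.747, 0.0394, 0.486, 0.496 and 0.543 CPM in non-infiltrated leaves (-0.56, adjusted p = 0.52). PR2, a glucanase, rose by 1.07 (adjusted p = 0.011, and 0.060 in a fit of only the 10 samples), while EPS1, which releases salicylic acid from its isochorismate conjugate, fell by 0.52 (adjusted p = 0.0029). WRKY53 and WRKY46, regulators induced early in defence, rose by 2.06 (adjusted p = 0.015) and 1.71 (adjusted p = 0.013) with overlapping groups. WRKY53 was at 11.2, 27.4, 23.7, 80.6 and 7.23 CPM in water-infiltrated leaves, against 4.98, 10.3, 15.4, 2.69 and 2.48 CPM in non-infiltrated leaves, and without its highest sample, water replicate 4, its adjusted p was 0.0885. Without the same sample the adjusted p of WRKY46 was 0.0683. Genes on the opposite strand overlap 20.5% of the exon length of WRKY53.

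Cysteine-rich receptor-like kinases (CRKs) and wall-associated kinases (WAKs) sense signals at the cell surface. Of 23 CRK genes tested, 17 rose and 2 fell, with a median of 0.70. CRK13 was at 16.3, 7.57, 11.6, 10.2 and 13.3 CPM in water-infiltrated leaves, against 2.82, 0.709, 4.38, 1.32 and 1.36 CPM in non-infiltrated leaves (log2 fold change 2.48, standard error 0.33, adjusted p = 3.2e-05). CRK7 averaged 3.01 ± 0.537 CPM in water-infiltrated and 0.949 ± 0.310 CPM in non-infiltrated leaves (1.67, adjusted p = 3.4e-05), and CRK45 rose by 1.698 (adjusted p = 9.6e-05). The neighbouring CRK28 and CRK29 went the other way, with CRK29 at 10.7, 9.87, 9.88, 10.8 and 9.79 CPM in water-infiltrated leaves, against 20.9, 18.25, 17.2, 14.3 and 13.6 CPM in non-infiltrated leaves (-0.72, adjusted p = 2.0e-04) and CRK28 at a log2 fold change of -0.50. All 6 WAK and WAK-like genes that passed the filter rose, of 11 listed, with a median of 1.03. The filter's average included the nanotube samples, so it could favour members that are high there. WAK1, which binds pectin, was at 224, 182, 145, 161 and 224 CPM in water-infiltrated leaves, against 119, 54.6, 39.7, 85.5 and 73.9 CPM in non-infiltrated leaves (1.33, adjusted p = 2.1e-04). WAK3 was low in both groups, at 2.28, 2.09, 1.16, 1.23 and 2.05 CPM in water-infiltrated leaves, against 0.166, 0.158, 0.224, 0.414 and 0.170 CPM in non-infiltrated leaves (log2 fold change 2.97, standard error 0.31, adjusted p = 3.8e-06), and the groups of both genes were apart. Of the 100-base windows of their exons, 10.7% in CRK13 and 10.6% in WAK3 occur elsewhere in the genome, so that reads could be shared with relatives.

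Among ethylene genes the largest changes were in synthesis. Of 16 tested, 5 rose and 2 fell (median 0.12). ACS8, an ACC synthase that makes the precursor of ethylene, was at 2.99, 3.92, 1.98, 4.17 and 5.47 CPM in water-infiltrated leaves, against 0.830, 0.276, 0.898, 0.372 and 0.848 CPM in non-infiltrated leaves (log2 fold change 2.51, standard error 0.35, adjusted p = 4.6e-05), with no overlap. ACS6, another ACC synthase and one known to be induced by touch, was at 58.5, 75.3, 110.3, 184 and 28.5 CPM in water-infiltrated leaves, against 10.7, 53.3, 52.6, 24.0 and 23.8 CPM in non-infiltrated leaves (1.47, adjusted p = 0.024). Its groups overlapped, and its adjusted p was 0.0981 without water replicate 4 and 0.053 to 0.054 without non-infiltrated replicate 1, 4 or 5. The receptor EIN4 rose by 0.38, while the receptor ERS2 fell by 0.72 (adjusted p = 0.0048). The other fall, ACO4, lost its call in 7 of the 10 fits that left out 1 sample, those without water replicate 1, 2 or 4 or non-infiltrated replicate 1, 2, 4 or 5. ETR1 (-0.073), EIN2 (-0.034) and EIN3 (0.016), the receptor and the carriers of the signal, did not pass the test. The 250 bases before the start of ACS8 (chr4:17751829-17752078, forward strand) are shown because they hold a rapid stress element, here in capitals.
ACS8: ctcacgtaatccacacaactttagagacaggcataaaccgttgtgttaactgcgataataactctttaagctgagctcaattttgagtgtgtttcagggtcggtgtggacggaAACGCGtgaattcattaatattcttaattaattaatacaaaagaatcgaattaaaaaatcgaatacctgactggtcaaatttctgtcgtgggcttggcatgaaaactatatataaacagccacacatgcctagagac

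Of 26 jasmonate genes tested, 5 fell and 1 rose, with a median of -0.59. Their share of falls was near the 16.4% of all genes, so the values describe single genes rather than the list. VSP2, a vegetative storage protein gene that reports jasmonate signalling, was at 2.03, 0.697, 119, 2.55 and 18.8 CPM in water-infiltrated leaves, against 266, 596, 196, 376 and 97.8 CPM in non-infiltrated leaves (log2 fold change -3.44, standard error 1.096, adjusted p = 0.022). The groups overlapped in water replicate 3 alone, which stood at 119 CPM. VSP1 was at 0.0829, 0, 11.0, 0.343 and 1.87 CPM in water-infiltrated leaves, against 13.2, 40.2, 14.3, 24.2 and 4.38 CPM in non-infiltrated leaves (-2.92, adjusted p = 0.020), and without non-infiltrated replicate 2 its adjusted p was 0.0626. LOX2, a lipoxygenase at the start of jasmonate synthesis, was at 475, 246, 1042, 344 and 683 CPM in water-infiltrated leaves, against 1169.7, 3125, 1192, 1621 and 898 CPM in non-infiltrated leaves (log2 fold change -1.52, standard error 0.36, adjusted p = 0.0033). The allene oxide cyclase gene AOC4 also fell, by 0.60. LOX6, another lipoxygenase, rose by 0.16, and lost the call without non-infiltrated replicate 4 or water replicate 1, 3 or 5. Most other members had negative values that did not pass, among them AOS (-0.57), OPR3 (-0.93) and JAZ10 (-0.94). The count of 5 became 3 without non-infiltrated replicate 2 and in the fit of only these 10 samples.

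Abscisic acid and dehydration genes were lower too: 6 of 20 tested fell and none rose, with a median of -0.41. RD29B, a dehydration gene, was at 1.87, 3.43, 2.15, 1.52 and 1.04 CPM in water-infiltrated leaves, against 8.67, 12.97, 14.8, 3.89 and 5.16 CPM in non-infiltrated leaves (log2 fold change -2.21, standard error 0.59, adjusted p = 0.0081). RAB18, a dehydrin, was at 58.8, 68.4, 126, 61.6 and 74.7 CPM in water-infiltrated leaves, against 145, 189, 219, 220.3 and 184 CPM in non-infiltrated leaves (log2 fold change -1.30, standard error 0.23, adjusted p = 4.3e-04). All 5 water-infiltrated samples were below all 5 others in both. HAI1, a phosphatase of the abscisic acid pathway, averaged 6.23 ± 2.19 CPM in water-infiltrated and 16.4 ± 5.51 CPM in non-infiltrated leaves (-1.41, adjusted p = 0.0062), and KIN1, a cold-inducible gene, averaged 11.7 ± 4.60 CPM in water-infiltrated and 30.7 ± 8.07 CPM in non-infiltrated leaves (-1.40, adjusted p = 0.0044). RD20, another dehydration gene, fell by 1.27. Without non-infiltrated replicate 3, 1 gene of the list rose. The synthesis gene NCED3 (0.47) and the catabolic gene CYP707A3 (1.15) had positive values that did not pass the test. Among aquaporins, the water channels of membranes, 6 of 15 tested rose and none fell (median 0.28), none of them by 2-fold, and 1 fell without water replicate 3. TIP2;1 of the vacuole averaged 1222 ± 112 CPM in water-infiltrated and 830.0 ± 126 CPM in non-infiltrated leaves (0.56, adjusted p = 0.0040) and PIP1;3 of the plasma membrane 448 ± 50.02 CPM in water-infiltrated and 308 ± 42.3 CPM in non-infiltrated leaves (0.54, adjusted p = 2.0e-04).

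**Figure D4:**
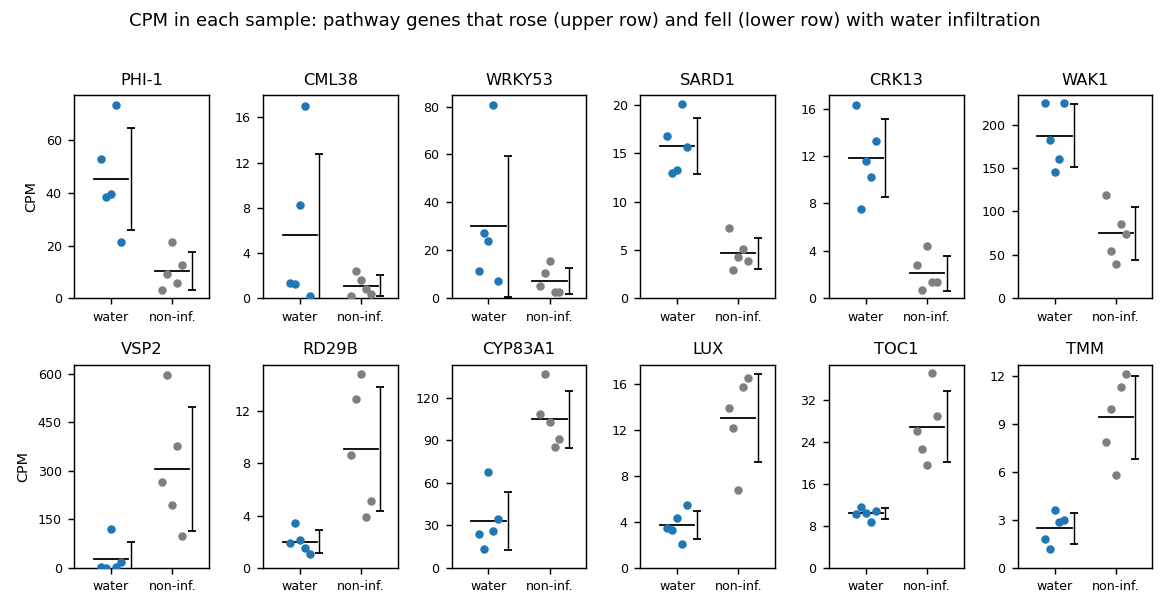
CPM in each of the 5 water-infiltrated (blue, left) and 5 non-infiltrated (grey, right) samples for 6 pathway genes that rose (upper row) and 6 that fell (lower row), with means as black lines and the SD as error bars, ending at the axis where they would pass below 0. SARD1, CRK13 and WAK1 have separate groups, whereas in CML38 and WRKY53 water replicate 4, at 17.0 and 80.6 CPM, stands above the rest; in the lower row VSP2 overlaps through water replicate 3.

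Glucosinolates are sulfur compounds that deter herbivores once myrosinase frees their breakdown products. On the list of the aliphatic branch, built from methionine, 17 of 20 genes tested fell and none rose. Its median, -1.42, was the lowest of all lists. The falls include SUR1 (-0.50), UGT74B1 (-0.55) and GGP1 (-0.87), which also serve the indolic branch, and IIL1 (-0.22), which also serves leucine synthesis. CYP83A1, which makes the aldoxime product reactive, was at 24.1, 13.5, 67.4, 26.2 and 34.1 CPM in water-infiltrated leaves, against 108, 137, 103, 84.9 and 90.8 CPM in non-infiltrated leaves (log2 fold change -1.67, standard error 0.32, adjusted p = 8.3e-04). BAT5, which carries keto acids into the plastid, averaged 1.74 ± 1.71 CPM in water-infiltrated and 11.1 ± 5.09 CPM in non-infiltrated leaves (-2.71, adjusted p = 4.0e-04). FMO GS-OX3, which oxidizes the side chain, was at 2.65, 1.61, 7.15, 2.79 and 3.74 CPM in water-infiltrated leaves, against 18.6, 21.7, 13.1, 16.8 and 10.3 CPM in non-infiltrated leaves (-2.17, adjusted p = 1.0e-04). In CYP83A1, BAT5 and FMO GS-OX3 the groups were apart, with water replicate 3 the highest of its group in each.

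CYP79F1, the first enzyme of the core structure, was at 1.87, 0.268, 36.7, 4.02 and 10.8 CPM in water-infiltrated leaves, against 58.5, 79.5, 39.98, 40.5 and 33.8 CPM in non-infiltrated leaves (-2.26, adjusted p = 0.021). It overlapped only in water replicate 3, and its adjusted p was 0.0512 without water replicate 4 and also above 0.05 without non-infiltrated replicate 2. Of the regulators, MYB29 fell by 1.06 (adjusted p = 0.018) and MYB28 had a value of -0.27 (adjusted p = 0.073). The myrosinase TGG1, one of the most counted leaf genes called, was at 476, 420.2, 1107, 592 and 605 CPM in water-infiltrated leaves, against 1399, 1511, 1337, 2083 and 1631 CPM in non-infiltrated leaves (log2 fold change -1.32, standard error 0.21, adjusted p = 1.8e-04). The glutathione transferase GSTU20, which is coexpressed with the aliphatic pathway, averaged 9.04 ± 4.70 CPM in water-infiltrated and 35.98 ± 10.03 CPM in non-infiltrated leaves (-2.001, adjusted p = 7.1e-05).

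The indolic branch, built from tryptophan, was split. Of 9 genes tested, 5 fell and 2 rose (median -0.40), and 3 fell without non-infiltrated replicate 2 or water replicate 1. CYP79B3, which starts the branch, averaged 59.8 ± 17.5 CPM in water-infiltrated and 126 ± 50.05 CPM in non-infiltrated leaves (-1.08, adjusted p = 0.0015), and CYP79B2 (-0.84) fell with it. The regulator MYB51 rose, at 11.3, 15.5, 12.7, 24.8 and 7.92 CPM in water-infiltrated leaves, against 3.24, 7.96, 8.23, 3.06 and 3.29 CPM in non-infiltrated leaves (1.48, adjusted p = 0.0014), with overlap between water replicate 5 and the highest non-infiltrated samples. IGMT2, which methylates indolic glucosinolates, rose by 1.85 (adjusted p = 0.0075), with 24.2% of its 100-base windows found elsewhere.

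Flavonoid genes were among the strongest falls. Of 13 listed genes only 5 were tested, and 3 fell. TT4, chalcone synthase at the start of the pathway, was at 0.539, 1.93, 2.33, 0.441 and 1.15 CPM in water-infiltrated leaves, against 11.7, 15.7, 5.83, 14.1 and 5.77 CPM in non-infiltrated leaves (log2 fold change -3.09, standard error 0.41, adjusted p = 3.0e-05). PAP1, the MYB activator of anthocyanin genes, was at 0.912, 0.376, 5.87, 0.882 and 2.27 CPM in water-infiltrated leaves, against 9.34, 20.2, 7.74, 11.9 and 3.32 CPM in non-infiltrated leaves (-2.38, adjusted p = 0.0049). UGT78D1, which adds rhamnose to flavonols, averaged 28.2 ± 4.51 CPM in water-infiltrated and 59.8 ± 12.9 CPM in non-infiltrated leaves (-1.08, adjusted p = 3.0e-05). TT4 and UGT78D1 had separate groups, whereas PAP1 overlapped. TT5 (0.15) and UGT78D2 (0.024) did not pass. The phenylpropanoid enzymes upstream of both flavonoids and lignin moved less, with 4 of 18 higher and 2 lower (median 0.07) and none by 2-fold. Only 1 of the 18 was lower without water replicate 2, 4 or 5, without non-infiltrated replicate 2, 4 or 5 or without SWNT replicate 4. The 250 bases before the start of TT4 (chr5:4488226-4488475, forward strand) are given with the G-box in capitals, as the sequence of a strong fall from the group in which that motif had its largest share.
TT4: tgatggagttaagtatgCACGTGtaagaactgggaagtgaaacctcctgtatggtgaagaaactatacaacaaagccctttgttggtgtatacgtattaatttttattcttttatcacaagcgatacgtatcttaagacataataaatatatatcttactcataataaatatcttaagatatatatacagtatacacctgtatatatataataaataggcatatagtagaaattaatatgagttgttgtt

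Clock genes changed in both directions, and the 3 genes of the evening complex fell. The clock couples morning factors (CCA1, LHY) to evening factors that repress them, and the evening complex joins ELF3, ELF4 and LUX. Of 16 clock genes tested, 8 fell and 3 rose, with a median of -0.15. LUX was at 3.44, 3.27, 4.302, 2.11 and 5.43 CPM in water-infiltrated leaves, against 13.9, 12.1, 6.81, 15.8 and 16.5 CPM in non-infiltrated leaves (log2 fold change -1.80, standard error 0.26, adjusted p = 7.3e-05). TOC1 was at 10.2, 11.6, 10.5, 8.82 and 10.8 CPM in water-infiltrated leaves, against 26.2, 22.6, 19.6, 37.2 and 28.9 CPM in non-infiltrated leaves (log2 fold change -1.37, standard error 0.18, adjusted p = 2.3e-05). ELF3 was at 17.8, 23.5, 19.6, 18.9 and 17.2 CPM in water-infiltrated leaves, against 41.7, 40.04, 32.9, 45.8 and 41.2 CPM in non-infiltrated leaves (log2 fold change -1.06, standard error 0.12, adjusted p = 5.6e-06). In each of the 3 genes all water-infiltrated samples lay below all others. ELF4 fell by 1.59 (adjusted p = 0.0044), PRR5 by 0.74 (adjusted p = 0.026) and GI by 0.62 (adjusted p = 2.1e-04). PRR5 lost its call without water replicate 2, 4 or 5 or non-infiltrated replicate 1 or 2, at an adjusted p of 0.0502 to 0.0742.

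The morning factors CCA1 and LHY did not pass the test, with CCA1 at 514 ± 45.1 CPM in water-infiltrated and 456 ± 70.9 CPM in non-infiltrated leaves (0.17, adjusted p = 0.16) and LHY at 399 ± 31.3 CPM in water-infiltrated and 361 ± 27.1 CPM in non-infiltrated leaves (0.14, adjusted p = 0.093). Other members of their family changed: RVE4 fell by 0.55 (adjusted p = 4.2e-04), RVE8 fell by 0.24 (adjusted p = 0.015), and RVE1 rose by 0.54 (adjusted p = 0.016), with an adjusted p of 0.0602 without water replicate 1. LNK1 and LNK2, coactivators of RVE proteins, rose by 0.26 and 0.19. LNK2 lost its call without water replicate 1 or non-infiltrated replicate 4 or 5. The count of 3 rises was 1 without water replicate 1 and 5 without non-infiltrated replicate 3. The hour of harvest is not given in the sources used here for either group, so a difference in the hour of collection and a change of the clock cannot be told apart. Of the 16 clock promoters, 9 hold a G-box and 4 an evening element, against 9.13% and 3.07% of all promoters. The evening elements of LUX (chr3:17182792-17183041) and TOC1 (chr5:24674713-24674962), both on the forward strand, are shown in capitals within the 250 bases before the start because both genes fell.
LUX: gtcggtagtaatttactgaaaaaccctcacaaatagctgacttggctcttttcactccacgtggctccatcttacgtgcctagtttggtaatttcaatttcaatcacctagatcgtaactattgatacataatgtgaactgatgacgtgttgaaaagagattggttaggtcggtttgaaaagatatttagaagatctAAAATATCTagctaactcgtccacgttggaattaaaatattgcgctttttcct
TOC1: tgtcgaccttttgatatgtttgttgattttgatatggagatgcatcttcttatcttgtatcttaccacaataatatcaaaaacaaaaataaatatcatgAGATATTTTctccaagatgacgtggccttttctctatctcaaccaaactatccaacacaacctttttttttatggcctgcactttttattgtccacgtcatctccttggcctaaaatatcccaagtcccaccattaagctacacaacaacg

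Transcripts of wall enzymes changed in both directions, and those of cuticle genes mostly rose where they passed the test. Of 29 expansin and xyloglucan enzyme genes tested, 10 rose and 6 fell (median 0.22). XTH23 was at 19.5, 8.75, 9.71, 6.37 and 7.45 CPM in water-infiltrated leaves, against 1.33, 0.946, 3.89, 0.207 and 1.97 CPM in non-infiltrated leaves (log2 fold change 2.61, standard error 0.47, adjusted p = 4.7e-04). XTH18 averaged 3.61 ± 1.57 CPM in water-infiltrated and 0.890 ± 0.333 CPM in non-infiltrated leaves (1.99, adjusted p = 3.1e-04), and XTH33 rose by 1.86 (adjusted p = 0.0040). EXPA16, an expansin that loosens the wall, was at 8.42, 12.6, 9.13, 8.87 and 11.4 CPM in water-infiltrated leaves, against 28.9, 23.65, 30.1, 43.4 and 23.2 CPM in non-infiltrated leaves (-1.56, adjusted p = 1.5e-04), and its groups, like those of XTH23, were apart. XTH32 fell by 1.02 (adjusted p = 0.045) but lost its call in 8 of the 10 fits without 1 sample, all but those without replicate 3 of either group, and without SWNT replicate 4. Of 24 cuticle genes tested, 12 rose and 2 fell (median 0.29), mostly by less than 2-fold. CER3, needed for wax alkanes, was at 211, 161, 196, 172 and 208 CPM in water-infiltrated leaves, against 103, 96.2, 123, 86.4 and 107 CPM in non-infiltrated leaves (log2 fold change 0.88, standard error 0.12, adjusted p = 4.4e-05). LTP2, a lipid-transfer protein, rose by 1.05 (adjusted p = 0.0085) and LACS1, an acyl-CoA synthetase of wax and cutin, fell by 0.81 (adjusted p = 0.0023). LACS1 was the only cuticle gene lower in 8 of the 10 fits without 1 sample, all but those without water replicate 1 or 2.

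Stomatal lineage genes fell. Of 8 tested, 6 fell and none rose (median -0.58), while 7 of the 15 listed were too low to test. TMM, a receptor-like protein that spaces stomata, was at 1.82, 1.18, 3.60, 2.84 and 2.99 CPM in water-infiltrated leaves, against 7.88, 9.93, 5.80, 11.3 and 12.1 CPM in non-infiltrated leaves (log2 fold change -1.92, standard error 0.24, adjusted p = 2.1e-05). EPF1, the peptide that TMM helps to perceive, was at 0.498, 0.751, 1.105, 0.245 and 1.295 CPM in water-infiltrated leaves, against 1.87, 1.93, 2.13, 3.31 and 2.51 CPM in non-infiltrated leaves (-1.58, adjusted p = 0.0015). STOMAGEN, a peptide of the mesophyll that promotes stomata, averaged 4.50 ± 2.07 CPM in water-infiltrated and 9.82 ± 2.90 CPM in non-infiltrated leaves (-1.14, adjusted p = 0.0055). FAMA, which finishes guard cells, averaged 23.8 ± 3.47 CPM in water-infiltrated and 37.7 ± 3.81 CPM in non-infiltrated leaves (-0.66, adjusted p = 5.6e-05). TMM, EPF1 and FAMA had separate groups. In bulk leaves, fewer cells of a type and less RNA per cell cannot be told apart.

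Markers of single leaf cell types were summed beside these genes. Of 6 guard cell markers, FAMA among them, 5 were tested and 4 fell, and their sum was 52.0 to 62.0 CPM in water-infiltrated and 74.9 to 91.8 CPM in non-infiltrated samples. The 4 trichome markers summed to 1.15 to 2.27 CPM in water-infiltrated and 4.002 to 10.2 CPM in non-infiltrated samples, none reached the filter so that none was tested, and GL1 was at 0 in all 10. Phloem companion cell markers summed to 696 to 782 CPM in water-infiltrated and 746 to 1030.4 CPM in non-infiltrated samples, with 3 of 5 lower. The part of these cell types in the other results was not tested.

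Chaperone genes rose or did not pass the test, while senescence genes and glutathione S-transferases were mixed. Of 8 chaperone genes tested, 6 rose and none fell (median 0.71). HSFA2, a heat shock factor, was at 8.13, 3.43, 3.08, 5.93 and 5.94 CPM in water-infiltrated leaves, against 1.91, 1.26, 0.711, 1.53 and 2.205 CPM in non-infiltrated leaves (log2 fold change 1.803, standard error 0.36, adjusted p = 0.0010), without overlap. HSP90.1 averaged 44.7 ± 7.49 CPM in water-infiltrated and 22.6 ± 5.13 CPM in non-infiltrated leaves (0.98, adjusted p = 3.3e-04), and BIP2, a chaperone of the endoplasmic reticulum, rose by 0.68. Of 15 senescence genes tested, 7 rose and 1, the chlorophyll-degrading PPH, fell (median 0.57). BCB, a blue copper protein of the cell surface, was at 170.4, 135, 119.5, 187 and 92.7 CPM in water-infiltrated leaves, against 39.8, 31.3, 41.0, 18.4 and 28.1 CPM in non-infiltrated leaves (log2 fold change 2.15, standard error 0.23, adjusted p = 4.7e-06), again without overlap. NAP, a NAC factor of leaf ageing, rose by 0.96. SAG13 rose by 1.82 (adjusted p = 0.014), but without water replicate 1 its adjusted p was 0.0725. NYE1 (0.18) and PAO (0.017), which break down chlorophyll, did not pass. Among 20 glutathione S-transferases tested, 6 rose and 2 fell (median 0.15). GSTU8 rose by 2.21 (adjusted p = 9.5e-04) and GSTF6 by 1.63 (adjusted p = 5.5e-04).

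Photosynthesis genes were slightly higher. Of 40 nuclear genes of light harvesting, the photosystems and Rubisco, 27 rose and 1 fell, with a median of 0.24 and no member changed 2-fold. RBCS2B, a small subunit of Rubisco, was at 524, 418, 702, 501 and 544 CPM in water-infiltrated leaves, against 322, 330.4, 268, 326 and 333 CPM in non-infiltrated leaves (log2 fold change 0.77, standard error 0.14, adjusted p = 4.3e-04), with no overlap. LHCB4.3, an antenna protein of light stress, was the one that fell (-0.91, adjusted p = 0.0043). The count of 27 became 16 in the fit of only the 10 samples.

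Sugar and nutrient genes changed in both directions. BAM5, a beta-amylase, was at 0.498, 0.322, 8.72, 1.72 and 3.63 CPM in water-infiltrated leaves, against 13.1, 55.7, 28.9, 63.7 and 7.43 CPM in non-infiltrated leaves (log2 fold change -3.54, standard error 0.92, adjusted p = 0.0068), with water replicate 3 overlapping the lowest non-infiltrated sample. DIN10, a raffinose synthase induced in the dark, and TPS11, a trehalose phosphate synthase family gene, rose by 1.09 (adjusted p = 2.5e-04) and 1.01 (adjusted p = 0.010), and PWD, which phosphorylates starch, fell by 0.70. In all, 3 of 19 rose and 5 fell (median -0.00798). The wall invertase cwINV1, which splits sucrose outside the cell, was at 74.1, 35.5, 48.2, 39.4 and 49.4 CPM in water-infiltrated leaves, against 13.7, 8.63, 13.8, 9.06 and 14.8 CPM in non-infiltrated leaves (log2 fold change 2.04, standard error 0.22, adjusted p = 4.7e-06). The sugar transporter SWEET4 was at 1.08, 1.29, 1.57, 1.32 and 1.295 CPM in water-infiltrated leaves, against 3.28, 4.97, 3.33, 5.92 and 5.66 CPM in non-infiltrated leaves (log2 fold change -1.82, standard error 0.30, adjusted p = 2.1e-04). Both were without overlap, in opposite directions.

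The nitrate transporter NRT1.5, which loads nitrate into the xylem, was the only one of 11 nitrate genes to rise, at 36.9, 37.6, 28.4, 34.2 and 29.9 CPM in water-infiltrated leaves, against 12.7, 16.9, 21.5, 7.78 and 12.2 CPM in non-infiltrated leaves (log2 fold change 1.23, standard error 0.19, adjusted p = 1.0e-04). Without water replicate 2 or non-infiltrated replicate 5, 2 nitrate genes rose. Of 6 sulfur genes tested, 3 fell: GGCT2;1 (-1.22), APR1 (-1.17) and APR3 (-0.78). APR1, which reduces activated sulfate, averaged 14.4 ± 1.29 CPM in water-infiltrated and 32.3 ± 5.77 CPM in non-infiltrated leaves. Of 8 phosphate genes, PHT1;4, a transporter, rose by 1.28 (adjusted p = 2.0e-04), and SRG3, SPX1 and PAP17 fell by 1.05, 0.93 and 0.77, with 5 lower without non-infiltrated replicate 3. Of 8 iron genes tested, 4 rose and 2 fell. OPT3, which moves iron in the phloem, was at 357, 348, 264, 329 and 339.7 CPM in water-infiltrated leaves, against 199, 144, 151, 134 and 209 CPM in non-infiltrated leaves (log2 fold change 0.97, standard error 0.11, adjusted p = 7.8e-06), and the deficiency regulators PYE (0.73) and BTS (0.69) rose with it. The ferritins FER3 and FER4, which store iron, fell by 0.48 and 0.49.

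Cell division and auxin genes showed no common direction. Of 7 cell division genes tested, of 21 listed, 3 rose and 1 fell: the replication helicase subunit MCM2 averaged 5.87 ± 1.58 CPM in water-infiltrated and 2.53 ± 1.15 CPM in non-infiltrated leaves (1.22, adjusted p = 0.0023), and the D-type cyclin CYCD3;1 2.87 ± 0.732 CPM in water-infiltrated and 5.37 ± 1.38 CPM in non-infiltrated leaves (-0.91, adjusted p = 0.0047). Of the cell division genes, 5 rose without water replicate 2 and 2 fell without non-infiltrated replicate 3. Of 14 auxin genes, 3 rose and 3 fell (median 0.07), none by 2-fold. The rises were 1 without non-infiltrated replicate 1 or 2 or water replicate 3, and the falls were 1 without non-infiltrated replicate 4 or 5 or water replicate 2 or 4.

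**Figure D5:**
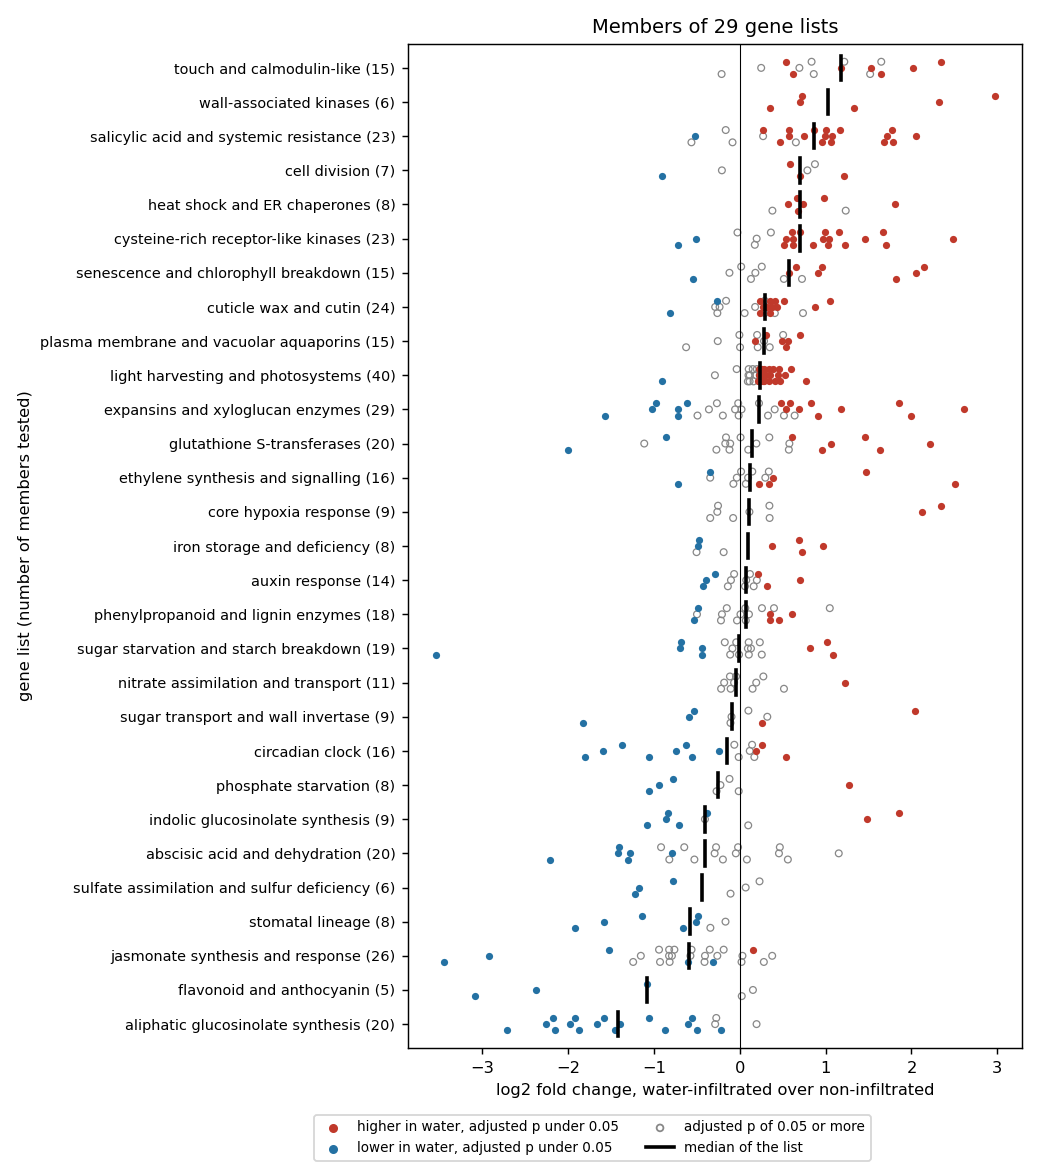
Each point is a tested member of 1 of 29 gene lists, placed by its log2 fold change, water-infiltrated over non-infiltrated (x axis), with lists ordered by their median (black line) and the number of members tested in brackets (y axis). Red and blue points have an adjusted p under 0.05. The touch list has the highest median, 1.18, and the aliphatic glucosinolate list the lowest, -1.42, while the hypoxia list has 2 red points and 7 open ones.

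Leaves infiltrated with nanotubes were set against the water-infiltrated leaves for the 137 genes named by the rule given under the processing. These comparisons share the water-infiltrated samples with the one above, through which the genes were chosen. In SWNT leaves 29 of the 137 differed from water at an adjusted p under 0.05, where 13.7% of all genes tested did (7.52% higher and 6.14% lower with SWNTs). In PEI-SWNT leaves 86 of the 137 did, where the share over all genes was 51.9%. PYE, a bHLH regulator of iron deficiency, was at 8.54 ± 1.94 CPM in SWNT leaves and 27.2 ± 8.25 CPM in water-infiltrated leaves (SD, n = 5 each). The log2 fold change of SWNTs over water was -1.67 (adjusted p = 5.4e-05). SPX1, a repressor of phosphate starvation responses, was at 7.16 ± 1.85 CPM in SWNT leaves and 22.1 ± 6.82 CPM in water-infiltrated leaves (SD, n = 5 each), a log2 fold change of -1.62 (adjusted p = 4.2e-04). KIN1 averaged 27.7 ± 20.2 CPM in SWNT leaves, against 11.7 ± 4.60 CPM in water-infiltrated leaves (1.25, adjusted p = 0.020). The first pair was lower and KIN1 higher with SWNTs than with water.

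Of the 137 genes, WAK3 stood furthest from water in PEI-SWNT leaves. WAK3 averaged 61.3 ± 5.55 CPM in PEI-SWNT leaves, against 1.76 ± 0.526 CPM in water-infiltrated leaves (5.09, adjusted p = 2.4e-12). The filter's average included the PEI-SWNT samples, so a gene low in the other groups could be tested through its level there. The rank of WAK3 is therefore not independent of the filter. CRK13 averaged 153 ± 10.7 CPM in PEI-SWNT leaves and 28.1 ± 8.44 CPM in SWNT leaves, against 11.8 ± 3.29 CPM in water-infiltrated leaves (log2 fold changes over water 3.69 and 1.24, adjusted p = 9.0e-09 and 0.0065). WRKY70 was 1.497 log2 units above water in PEI-SWNT leaves (adjusted p = 3.9e-06). In the same leaves GGCT2;1, of the sulfur list, had a log2 fold change over water of -2.53 (adjusted p = 4.3e-06). For VSP2 (-1.35 with PEI-SWNTs and 0.37 with SWNTs) and LUX (0.55 and -0.035) no difference from water passed the test with either nanotube.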

How the data were processed

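RNA-seq read counts per gene were taken as the authors deposited them, in 1 table of whole-number counts with 5 columns for each of 4 groups. The labels and the study's methods name poly-A selection, trimming with Trimmomatic, alignment with HISAT2 to the TAIR10 genome and counting with featureCounts 2.0.1, and edgeR 3.30.3 is among the tools of the submitters' processing notes. The handling of reads with several matches is not given in the sources used here. A second deposited table held the authors' own fold changes and p-values, of which none was used, and gene lengths in bases. These lengths served the RPKM filter for 139 genes that could not be matched to RefSeq's TAIR10.1 annotation, which gave the rest.

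Counts were fitted with edgeR 4.0.16 (R 4.3.3, trimmed mean of M values, quasi-likelihood test with its earlier dispersion method, not robust) over all 20 samples with 1 coefficient per group. Genes were kept at an average RPKM of at least 1, p-values were Benjamini-Hochberg adjusted, and genes at least 2-fold apart with an adjusted p below 0.05 were called. Library totals of 18191528 to 29737496 counts set the precision of the 10 samples compared, and normalization factors lay between 0.948 and 1.05. The groups were labelled as separate samples of pooled leaves, with nothing said of separate experiments, so p-values measure the spread between these samples.

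The comparison and the gene lists were chosen with earlier results of these data known. Genes named by rule were the 12 largest rises and 12 largest falls among genes called with separate groups and a mean of at least 5 CPM in the higher group, up to 3 members of each list with the largest changes past the test, the most counted further member of each list, the 5 most counted genes called, and SAND, 137 of which were tested. Other list members were named after their values were seen. On simulated data made from these counts, the fit recovered 49 of 61 genes changed 1.5-fold, 65 of 72 changed 2-fold and 67 of 67 changed 4-fold at an adjusted p under 0.05, and passed 6 of 16088 unchanged ones. Of those changed 2-fold, 34 also passed the fold minimum. The simulation changed far fewer genes than passed the test in the data, none of them of very low count, and drew each gene independently. Samples that shift many genes together were not simulated, so these rates may not hold for the data. Alternatives tried were DESeq2 1.42.0, other normalizations, filters, thresholds and models, a replicate block, and leaving out each sample. Leaving out SWNT replicate 4 was chosen after seeing the data.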

Additional observations from a re-analysis of the deposited data

Results flagged for a closer look

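In 23 of the 328 pairs of a named gene and a group, 1 of the 5 samples stood so far from the rest that its gap to the nearest other sample took up more than 0.71 of the group's range (Dixon's critical value for 5 samples). For independent, normally distributed values, chance alone flags about 1 group in 20. CPM values need not be normal, and genes measured in the same sample are not independent, so that rate may not hold here. Water replicate 3 stood apart 7 times, each time as the highest water-infiltrated sample of a gene that fell. It had 36.7 CPM of CYP79F1 (next highest 10.8), 82.7 CPM of RD20 (46.4), 53.8 CPM of AT5G23820 (15.4), 119 CPM of VSP2 (18.8), 11.0 CPM of VSP1 (1.87), 1107 CPM of TGG1 (605) and 126 CPM of RAB18 (74.7). In all 7 genes this sample lay nearest to the non-infiltrated leaves.

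Water replicate 1 stood apart in 6 genes, again as the highest sample. It had 62.6 CPM of AT1G26390 (next highest 23.2), 63.9 CPM of AT3G22620 (25.4), 10.2 CPM of AT3G21080 (6.22), 19.5 CPM of XTH23 (9.71) and 4.98 CPM of GSTU8 (2.146), which all rose, and 7.09 CPM of PRR5 (3.49), which fell. Water replicate 4 was the highest for WRKY53, at 80.6 CPM (27.4), and CML37, at 7.25 CPM (2.21).

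Among non-infiltrated leaves, replicate 2 was the highest for the jasmonate genes AOS, at 872 CPM (next highest 456), and OPR3, at 199 CPM (81.2), and for CYP79B3, at 213 CPM (120.5). Replicate 1 was the highest for WRKY70, at 45.0 CPM (25.3), and the lowest for ETR1, at 36.2 CPM (next lowest 39.6). Replicate 3 was the lowest for RBCS2B, at 268 CPM (322). Replicate 4 was the highest for WAK3, at 0.414 CPM (0.224), and replicate 5 for SAG13, at 4.17 CPM (1.25).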

How the results depend on the processing

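The main counts of 425 higher and 310 lower genes kept within 1.5 times under most alternatives: 462 and 303 with DESeq2, 444 and 302 with its size factors in edgeR, 406 and 332 with library size alone, 399 and 321 with an offset for GC content and length, 350 and 275 in a fit of only the 10 samples, 439 and 297 without organelle genes, 415 and 304 with robust dispersion, and 431 and 300 without SWNT replicate 4, an alternative chosen after seeing the data. Leaving out 1 sample gave 361 to 504 higher and 270 to 394 lower genes, and 131 to 156 higher and 74 to 92 lower list members, against 151 and 88. They moved further where the question changed: a test against 2-fold (glmTreat) gave 46 higher and 28 lower genes and 6 higher and 5 lower list members, and a fold minimum of 1.5 gave 830 and 862 genes. With more low genes tested, 541 genes were lower under edgeR's filterByExpr and 670 with no filter. An adjusted p of 0.01 left 93 higher list members, and 166 list members were lower among those past a joint test of the 3 treatments.

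No direction reversed among the genes named. Of the 139 past the test, 16 lost it in at least 1 fit without a sample and 14 in the fit of only the 10 samples. The normalizations put the median of all genes between -0.018 and 0.017 log2 units. The labels number replicates 1 to 5 in each group, and a replicate block gave 432 higher and 298 lower genes and 159 higher and 84 lower list members. Samples of the same number deviated together in only some cases (correlations of 0.197, -0.020, -0.268, -0.015 and 0.290 for numbers 1 to 5), so the numbers were not taken to pair the samples, and the block ended the call of 2 genes named.

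Depth limits genes of a few CPM, such as LTL1 and PR1, for which 1 sample had no count. Leaf handling and the water differ together between the groups. The hour of harvest, and the age and position of the non-infiltrated leaves, are not given in the sources used here. A difference in leaf stage and a response to infiltration therefore cannot be told apart. Responses that ended within 2 days of infiltration were not measured.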
